A study of Mus musculus with 9 samples.

Results

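The 10 genes H2-K1, H2-D1, H2-T23, B2m, Tap1, Tap2, Tapbp, Nlrc5, Psmb8 and Psmb9, which build and supply the MHC class I molecule, were chosen by name for their role in antigen presentation. They are 10 of the 53379 genes of an RNA-seq table from mouse bone marrow (BM)-derived Mϕs, and all 10 passed the filter on low values. BM cells of wild-type C57BL/6 mice were grown in MCSF (CSF-1, the Mϕ growth factor) at 10 ng/ml for 3 days. For 4 days more they received MCSF alone (Control), MCSF with 10 ng/ml IL-4 (IL-4) or MCSF with 100 ng/ml IL-6 (IL-6), each group with 3 libraries numbered 1 to 3. All 3 groups thus carried MCSF throughout, and the cultures were not sorted. The study's methods give a higher IL-4 dose than these labels, and its legends another dose and time.

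MHC class I molecules show peptides from inside the cell to CD8+ T cells. The proteasome cuts proteins into peptides, the TAP transporter carries these into the endoplasmic reticulum, and the loading complex fits them onto a heavy chain paired with β2-microglobulin. Interferons are known to raise most of these genes, partly by swapping 3 catalytic proteasome subunits for inducible ones and partly through the activator NLRC5. In Mϕs this pathway serves the display of the cell's own and of engulfed antigens.

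Values are FPKM, fragments scaled to exon length and library size, which compare genes per length. The libraries held 29988160 to 39909571 fragments, and each member rested on 797 to 135992 fragments per library, so that the spread between libraries rather than counting set the precision. The treatments were visible in Arg1, an IL-4-induced gene with 64936 to 93471 fragments in the IL-4 libraries and 32 to 365 in the others, and in Socs3, an IL-6-induced gene with 7532 to 7639 fragments in the IL-6 libraries and 163 to 294 in the others. Some libraries stood apart. Control #1 to #3 and IL-4 #1 held transcripts of 20 intestinal genes, summing to 41.2 to 63.1 FPKM, against 0.0139 to 0.175 in the other 5, while 20 skeletal muscle genes summed to 4.86 to 20.4 over all 9. No IL-6 library belonged to the set of the controls, so for IL-6 against control this division and the treatment cannot be told apart. With the library set as a term in a fit, IL-4 against control compares IL-4 #1 alone with the controls. IL-6 against control is then reached only through IL-4 #1 as well. IL-4 #3 had the highest FPKM sum, 441581 against 322853 to 371690. For many, but not all, of the counts and calls that move on leaving it out, the value without it is given. Fewer cells of a type and less RNA per cell cannot be told apart in such bulk samples. The 10 Mϕ markers summed to 18686 to 21840 FPKM in Control, 7302 to 8546 in IL-4 and 23521 to 24143 in IL-6, with none at 0. Most of that was Lyz2, at 13786 to 16064, 4479 to 5734 and 17852 to 18963. Taken singly, 8 of the 10 fell and 0 rose with IL-4, and 2 rose and 1, Cd68, fell with IL-6 (limma, adjusted p under 0.05).

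**Figure D1:**
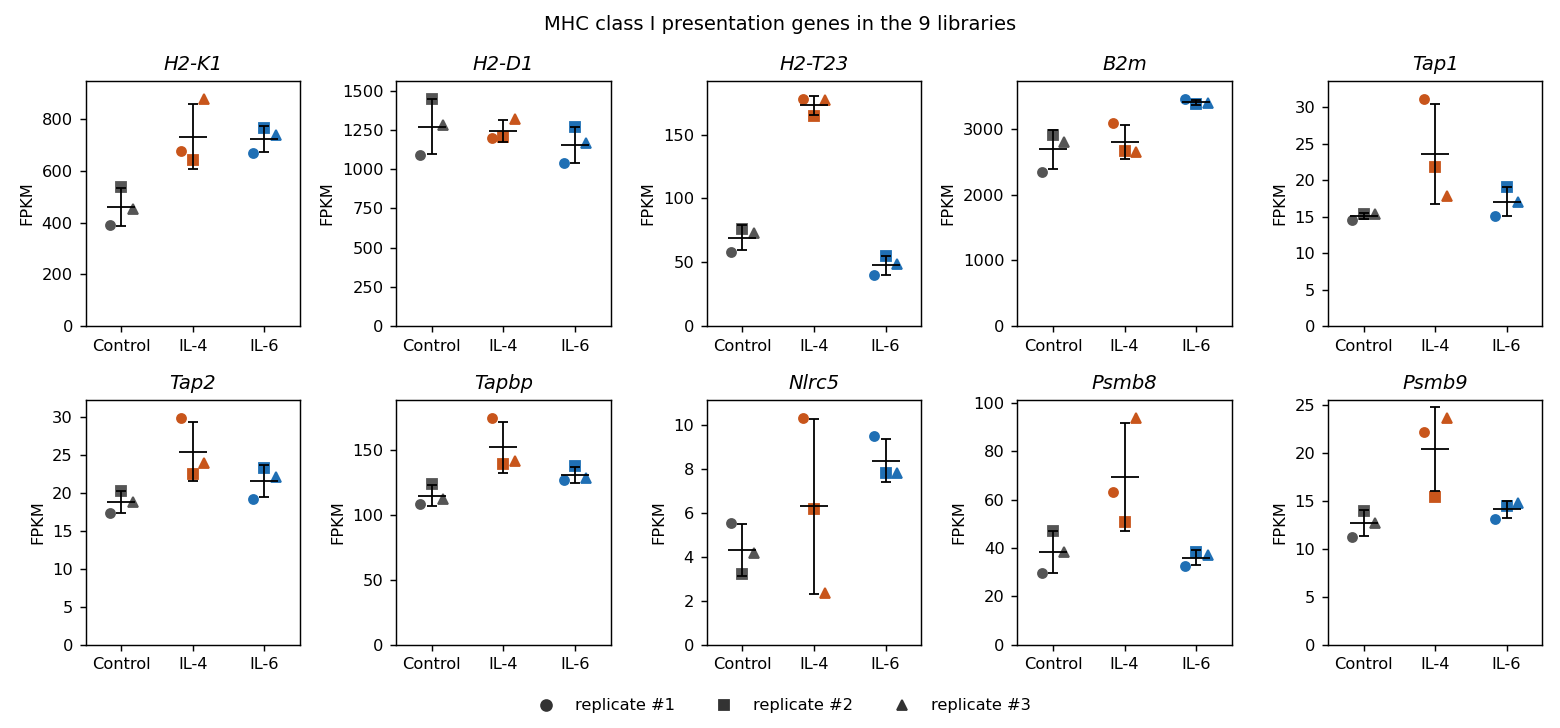
FPKM (y axes, linear from 0) of the 10 genes in Control, IL-4 and IL-6 libraries. Points are libraries, shaped by replicate number, and bars are the mean ± SD of 3 libraries. H2-T23 separates all 3 groups, H2-D1 separates none, and the IL-4 libraries spread widely for Nlrc5, from 2.35 to 10.4 FPKM.

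The promoter windows of 4 members show where the heavy chains and their partner differ. Each runs from 250 bases before to 50 after the RefSeq start on GRCm38.p6. RefSeq held windows for 8 of the 10 members, not for Tap2 and Nlrc5. Capitals mark matches, on either strand, to the interferon-stimulated response element (GAAA, 2 free bases, GAAA), the class I interferon element (GAA, 1 free base, TGAAA), the NF-κB site of enhancer A (GGGGA, 1 free base, TCCCC), a second NF-κB site (GGGA, 2 free bases, TTCC), the X2 box core TGACG and the Y box CCAAT. No 2 matches overlapped in these windows. H2-K1 lies at chr17:34000298-34000597 (minus strand), H2-D1 at chr17:35262844-35263143 (plus), H2-T23 at chr17:36032652-36032951 (minus) and B2m at chr2:122147437-122147736 (plus).
H2-K1: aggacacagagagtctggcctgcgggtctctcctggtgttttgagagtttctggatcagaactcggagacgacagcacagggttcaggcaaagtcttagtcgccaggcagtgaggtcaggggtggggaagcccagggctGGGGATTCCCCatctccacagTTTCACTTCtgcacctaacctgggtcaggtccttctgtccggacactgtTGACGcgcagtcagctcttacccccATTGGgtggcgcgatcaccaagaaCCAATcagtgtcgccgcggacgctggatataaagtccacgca
H2-D1: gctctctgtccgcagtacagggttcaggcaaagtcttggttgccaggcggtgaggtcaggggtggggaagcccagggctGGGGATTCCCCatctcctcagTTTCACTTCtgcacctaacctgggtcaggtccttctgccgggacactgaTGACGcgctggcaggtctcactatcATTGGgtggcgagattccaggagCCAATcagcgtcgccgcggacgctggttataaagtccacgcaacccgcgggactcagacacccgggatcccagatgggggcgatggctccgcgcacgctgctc
H2-T23: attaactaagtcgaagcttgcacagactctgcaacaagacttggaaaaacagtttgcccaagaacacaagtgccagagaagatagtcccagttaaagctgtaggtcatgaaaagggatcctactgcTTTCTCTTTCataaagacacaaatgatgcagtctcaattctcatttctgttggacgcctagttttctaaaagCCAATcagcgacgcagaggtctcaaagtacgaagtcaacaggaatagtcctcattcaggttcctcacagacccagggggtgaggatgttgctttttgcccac
B2m: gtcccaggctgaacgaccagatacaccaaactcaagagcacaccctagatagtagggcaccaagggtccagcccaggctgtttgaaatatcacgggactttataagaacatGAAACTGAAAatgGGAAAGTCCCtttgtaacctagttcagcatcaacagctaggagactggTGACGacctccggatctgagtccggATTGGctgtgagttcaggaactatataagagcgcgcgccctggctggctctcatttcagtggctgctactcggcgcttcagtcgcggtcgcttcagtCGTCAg

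The H2-K1 and H2-D1 windows share 206 identical bases over 228 aligned columns (90.4%, with 1 gap column), and each holds the enhancer A match, which 16 of 32851 windows of the same length hold (0.0487%), close to a class I interferon element (1.83% of windows). H2-T23 has neither but has the interferon-stimulated response element (3.44%), as B2m does. B2m also holds the second NF-κB site (1.47%). TGACG (20.8%) and CCAAT (37.4%) are common. TTC and GAA with 4 free bases between, the spacing preferred by STAT6, the factor downstream of IL-4, are in 6.95% of windows and in none of the members' 8. These matches describe letters in 1 window per gene and nothing about binding.

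IL-4 against control asks what the cytokine of alternative activation does to this pathway. H2-K1, H2-T23, Psmb8 and Psmb9 rose with IL-4, and no member fell (limma, adjusted p under 0.05). Of all 12824 genes tested, 24.8% changed, with 8.55% higher and 16.3% lower. The members' median log2 fold change was 0.51, against −0.20 over all tested genes. Under median-ratio rescaling and quantile normalization the median over all genes was −0.01 and −0.03, 6 members passed in each, and the members' median was 0.71 and 0.53. The split of all changed genes moved with the scaling, from 1096 higher and 2090 lower to 1574 and 1618, or 1553 and 1848.

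For IL-6 against control, 8.4% of tested genes changed, 4.58% higher and 3.82% lower, and no member passed the limma test. Unadjusted p was under 0.05 for 3 members, H2-K1, B2m and H2-T23, and limma voom on recovered fragments passed 1, H2-K1. The members' median was 0.18, against −0.0044 over all genes. Between IL-6 and IL-4, 34.1% of genes differed, 20.8% higher and 13.3% lower in IL-6, and H2-T23 and Psmb8 were lower in IL-6. The members' median there was −0.22, against 0.22 over all genes.

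Group ranges that do not overlap give a second count. All IL-4 libraries exceeded all controls for 7 members, H2-K1, H2-T23, Tap1, Tap2, Tapbp, Psmb8 and Psmb9, where 13.5% of tested genes did so, and none lay below all controls, where 26.8% did. All IL-6 libraries exceeded all controls for 4, H2-K1, B2m, Tapbp and Nlrc5 (20% of genes), and lay below them for H2-T23 (23.2%). With 3 libraries against 3 the exact permutation test gives p = 0.1 at best, for each of these. The IL-6 libraries lay below all IL-4 libraries for H2-T23, Tapbp, Psmb8 and Psmb9 (20.6%) and above them for B2m (36.3%). The comparisons share libraries and are set side by side only. Where the log2 fold change also had to reach 1 in size, H2-T23 was the 1 member higher with IL-4 (5.02% of tested genes higher, 8.89% lower) and the 1 member lower in IL-6 than in IL-4 (13.6% higher, 6.82% lower), and again none passed for IL-6 against control (3.49% higher, 1.89% lower).

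**Figure D2:**
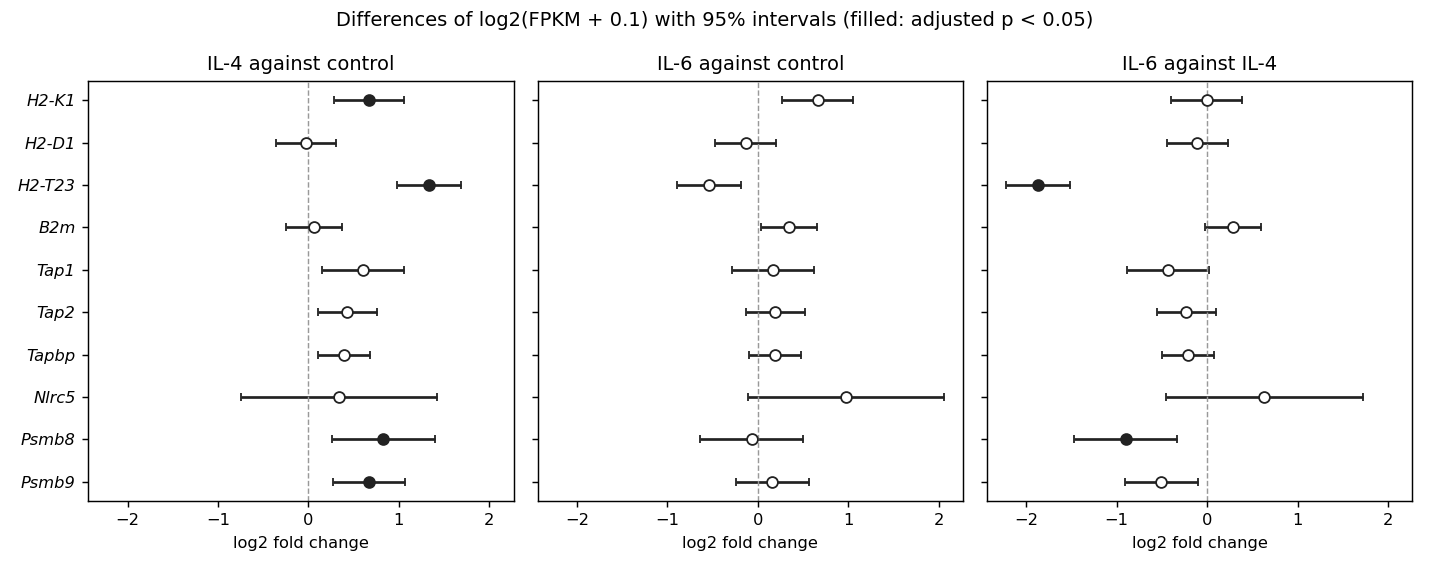
Log2 fold changes on the log2(FPKM + 0.1) scale (x axes) of the 10 genes (y axis) in the 3 comparisons, with 95% intervals from the limma fit. Filled points passed an adjusted p under 0.05: 4 genes for IL-4 against control, none for IL-6 against control, and H2-T23 and Psmb8 for IL-6 against IL-4.

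H2-K1 (ENSMUSG00000061232.15, chr17:33996017-34000347) encodes the classical heavy chain H-2K (gene positions are from GENCODE M21 on GRCm38). It measured 390, 536 and 453 FPKM in Control #1 to #3, 678, 643 and 877 in IL-4 and 667, 766 and 737 in IL-6. Every treated library lay above every control, and the treated groups overlapped. H2-K1 rose with IL-4, with a log2 fold change of 0.67 (SE 0.171, adjusted p = 0.0221). With IL-6 the difference was as large, 0.66, but missed the threshold (SE 0.171, adjusted p = 0.0507), and over 24 alternatives it passed in 8. It passed without IL-4 #3 (adjusted p = 0.00815), which enters only through the shared spread, and after removal of length and GC trends (0.79, adjusted p = 0.000986). With the library set as a term the values were 0.57 (adjusted p = 0.213) and 0.52 (adjusted p = 0.320).

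H2-D1 (ENSMUSG00000073411.11, chr17:35262730-35267499) encodes the other classical chain, H-2D, and stood highest of the heavy chains. It measured 1091, 1447 and 1280 FPKM in Control, 1200, 1207 and 1321 in IL-4 and 1039, 1267 and 1164 in IL-6. The 3 groups overlapped throughout. The log2 fold change was −0.03 for IL-4 (95% interval −0.36 to 0.31) and −0.13 for IL-6 (95% interval −0.47 to 0.20), and changes within these intervals were not detectable.

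The classical chains can be set against each other within a library, which removes its scaling. The H2-K1/H2-D1 ratio of FPKM was 0.357, 0.371 and 0.354 in Control, 0.565, 0.532 and 0.664 in IL-4 and 0.642, 0.604 and 0.633 in IL-6. Both treated groups lay clear of the controls, 1.62-fold and 1.74-fold higher, and overlapped each other. The exact permutation p was 0.1, the smallest possible, as for all non-overlapping ratios here, among 7 ratios in 3 comparisons. IL-4 #1, which shares the intestinal transcripts with the controls, was at 0.565. H2-K1 shares 9.63% of its 50-base stretches with other genes, and H2-D1 12.8%, chiefly of the class I family, so how the counting split such reads could move these levels.

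H2-T23 (ENSMUSG00000067212.8, chr17:36029773-36032855) encodes Qa-1, a nonclassical chain that shows leader peptides of other class I chains to NKG2 receptors. It measured 58.0, 76.2 and 73.1 FPKM in Control, 178, 164 and 177 in IL-4 and 40.0, 54.6 and 48.4 in IL-6. The 3 groups were fully apart, with IL-4 highest and IL-6 lowest. H2-T23 rose with IL-4, by a log2 fold change of 1.33 (SE 0.154, adjusted p = 0.00050), with a ratio of means of 2.502. It was lower with IL-6 than with IL-4, by −1.87 (adjusted p = 5.39e-05), a ratio of 0.275. IL-6 against control was −0.54 and missed the threshold (adjusted p = 0.0751), although it passed without IL-4 #3 (adjusted p = 0.0306).

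The first 2 of these H2-T23 results passed in all 24 alternatives. Within the set without intestinal transcripts, the IL-6 libraries averaged 0.279 of IL-4 #2 and #3, and within the other set IL-4 #1 was 2.57 times the controls. Relative to H2-D1 the level of H2-T23 was 0.0543 ± 0.00244 for Control, 0.139 ± 0.00769 for IL-4 and 0.0410 ± 0.00235 for IL-6 (SD, n = 3 libraries). Of its 50-base stretches, 13.6% occur in other genes.

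B2m (ENSMUSG00000060802.8, chr2:122147686-122153083) encodes β2-microglobulin, the light chain of every class I molecule, and had the highest FPKM of the members. It measured 2355, 2914 and 2816 FPKM in Control, 3102, 2673 and 2653 in IL-4 and 3462, 3384 and 3401 in IL-6. All IL-6 libraries exceeded the other 6, whose groups overlapped. The IL-6 difference from control was 0.35 (SE 0.136, adjusted p = 0.187) and from IL-4 0.29 (adjusted p = 0.133), and neither passed. Under quantile normalization IL-4 turned from 0.06 to −0.46 (adjusted p = 0.0893) and the IL-6 value over IL-4 passed, at 0.87. The B2m/H2-D1 ratio was 2.12 ± 0.0977 for Control, 2.27 ± 0.293 for IL-4 and 2.97 ± 0.335 for IL-6 (SD, n = 3 libraries), and IL-6 did not overlap either.

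**Figure D3:**
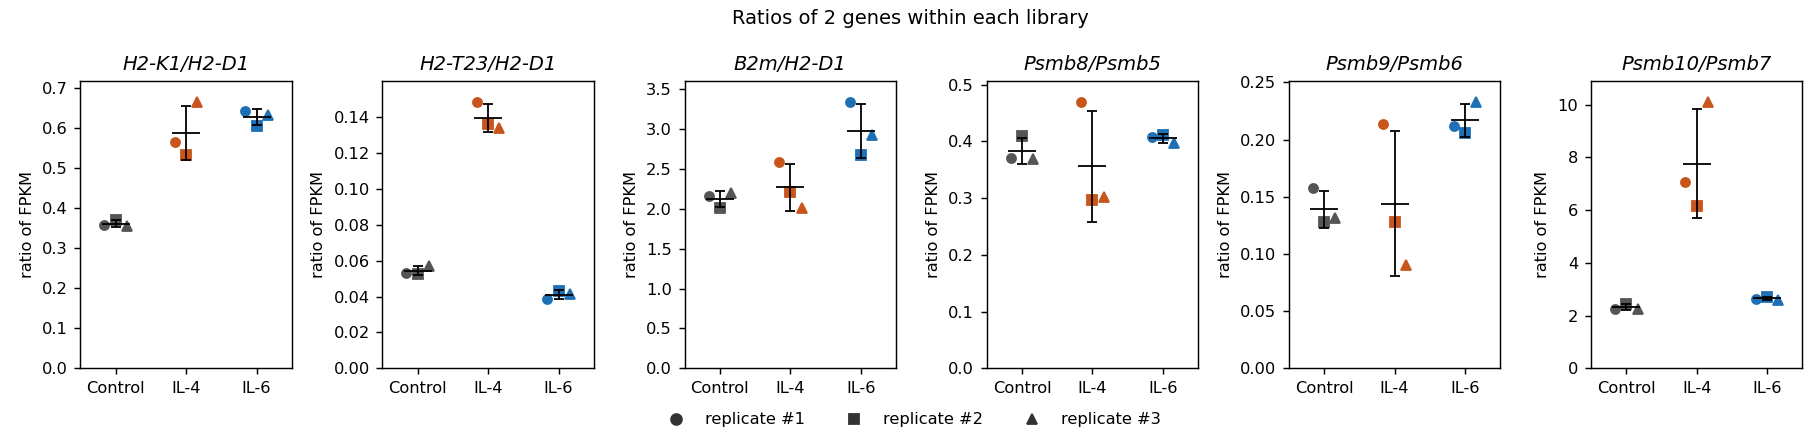
Ratios of the FPKM of 2 genes within each library (y axes, from 0) in Control, IL-4 and IL-6. Points are libraries, shaped by replicate number, and bars are the mean ± SD of 3 libraries. H2-K1/H2-D1 is higher in all 6 treated libraries, and Psmb10/Psmb7 stands apart in IL-4, while Psmb8/Psmb5 overlaps in all groups.

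Psmb8 (ENSMUSG00000024338.14, chr17:34197721-34201454) encodes β5i, the inducible subunit that takes the place of Psmb5. It measured 29.5, 47.1 and 38.5 FPKM in Control, 63.3, 50.6 and 94.0 in IL-4 and 32.6, 38.2 and 37.2 in IL-6. All IL-4 libraries lay above the other 6, with IL-4 #3 far above the rest. Psmb8 rose with IL-4, by 0.83 (SE 0.248, adjusted p = 0.0422), and was lower with IL-6 than with IL-4, by −0.90 (adjusted p = 0.0248). The rise passed in 11 of 24 alternatives and missed with the replicate number as a block (adjusted p = 0.0504) and with the library set as a term (0.75, adjusted p = 0.277). The IL-6 difference was lost on leaving out any 1 IL-6 library.

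Psmb9 (ENSMUSG00000096727.2, chr17:34181987-34187764) encodes β1i, the inducible counterpart of Psmb6. It measured 11.3, 13.95 and 12.7 FPKM in Control, 22.2, 15.4 and 23.7 in IL-4 and 13.1, 14.4 and 14.8 in IL-6. The IL-4 libraries lay above all others, IL-4 #2 by little. Psmb9 rose with IL-4, by 0.67 (SE 0.175, adjusted p = 0.0251), and in IL-6 against IL-4 the value was −0.51 (adjusted p = 0.0548). With the set as a term the IL-4 value was 0.81 (adjusted p = 0.0900). Leaving out Control #1 or Control #3 ended the calls of H2-K1, Psmb8 and Psmb9 alike, leaving H2-T23, and leaving out IL-4 #1 ended those of Psmb8 and Psmb9.

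The proteasome as a whole gives these values their setting. For this and the lists below, the shares over all tested genes were 8.55% higher and 16.3% lower with IL-4. They were 4.58% and 3.82% with IL-6, and 20.8% and 13.3% for IL-6 against IL-4. Without IL-4 #3, 1967 of the 12824 genes rose and 2881 fell with IL-4. With IL-6, 1573 then rose and 1595 fell, and 3166 were higher and 2378 lower in IL-6 than in IL-4. Of 4 other genes of the inducible proteasome, 3 rose with IL-4: Psmb10 (β2i) by 2.02 (adjusted p = 0.00199), Psme2 by 1.23 and Psme1 by 0.88, the last pair coding for the PA28 cap. Pomp, the assembly factor, measured 0.41 (adjusted p = 0.263). All 4 were lower in IL-6 than in IL-4, Psmb10 by −2.02, and none passed for IL-6 against control (limma, 0 at an unadjusted p under 0.05, and 0 by voom).

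Of 16 constitutive proteasome genes, 15 were above control by sign with IL-4 and 4 rose, among them Psmb5 by 0.97 (adjusted p = 0.0446), Psma3 by 0.72 and Psma5 by 0.68. Psmb6 measured 0.71 (adjusted p = 0.161). The median over the 16 was 0.60, but IL-4 #3 carried much of it, with Psmb5 at 135, 170 and 312 FPKM and Psmb6 at 104, 121 and 263 in IL-4 #1 to #3. Without that library the median was 0.26, with 4 of the 16 rising, and with the library set as a term it was 0.23, against 0.54 and 0.71 for the members. For the 4 other inducible genes the median was 1.05, and 0.77 without IL-4 #3, where 3 rose. Under median-ratio rescaling and quantile normalization all 16 were above control, with 2 and 5 passing. With the library set as a term, Psmb10 alone of the 4 and none of the 16 passed for IL-4 (limma, with 1 of the 16 at an unadjusted p under 0.05; 4 of 14 passed by voom without the term). In IL-6 against IL-4, 6 of the 16 were lower (7 without IL-4 #3), Psmb6 by −1.19 and Psmb5 by −1.12. In IL-6 against control no gene of the 16 passed (limma, 0 at an unadjusted p under 0.05, and 0 of 14 by voom).

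Ratios of an inducible to its constitutive subunit show how the pairs moved within a library. Psmb8/Psmb5 was 0.371, 0.409 and 0.369 in Control, 0.469, 0.297 and 0.301 in IL-4 and 0.408, 0.411 and 0.396 in IL-6, and the groups overlapped. Psmb9/Psmb6 was 0.139 ± 0.0163 in Control and 0.144 ± 0.0634 in IL-4, which overlapped, and 0.217 ± 0.0142 in IL-6 (SD, n = 3 libraries), which lay above all controls. Psmb10/Psmb7 stood at 2.25, 2.46 and 2.24 in Control, 7.05, 6.14 and 10.1 in IL-4 and 2.64, 2.72 and 2.59 in IL-6. This pair alone separated IL-4 clearly, 3.28-fold above control, and IL-6 lay 1.14-fold above control without overlap.

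Tap1 (ENSMUSG00000037321.17, chr17:34187553-34197225) and Tap2 (ENSMUSG00000024339.12, chr17:34203527-34216321) encode the chains of the peptide transporter and lie beside Psmb8 and Psmb9 in a stretch of 34.3 kb. Tap1 measured 14.6, 15.3 and 15.3 FPKM in Control, 31.1, 21.8 and 17.8 in IL-4 and 15.1, 19.0 and 17.02 in IL-6. Tap2 measured 17.4, 20.3 and 18.8 FPKM in Control, 30.0, 22.5 and 23.99 in IL-4 and 19.3, 23.4 and 22.1 in IL-6. For both, the IL-4 libraries lay above the controls with IL-4 #1 highest, and IL-6 overlapped both groups. The IL-4 difference was 0.60 for Tap1 (SE 0.198, adjusted p = 0.0592) and 0.43 for Tap2 (SE 0.143, adjusted p = 0.0613). In IL-6 against IL-4, Tap1 measured −0.43 (adjusted p = 0.122), and without IL-4 #3 it passed as lower, at −0.61 (adjusted p = 0.0155).

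Tapbp (ENSMUSG00000024308.14, chr17:33915899-33929292) encodes tapasin, which bridges TAP and the empty heavy chain. It measured 109, 124 and 112 FPKM in Control, 175, 140 and 142 in IL-4 and 127, 138 and 129 in IL-6. The groups were apart and in the order Control, IL-6, IL-4, although the highest IL-6 and the lowest IL-4 library differed by little. The IL-4 difference was 0.40 (SE 0.126, adjusted p = 0.0506) and the IL-6 difference 0.19 (adjusted p = 0.461). With the library set as a term, the IL-4 value was 1.04 for Tap1, 0.67 for Tap2 and 0.61 for Tapbp. In that fit the IL-4 calls moved to these genes from H2-K1, Psmb8 and Psmb9, and H2-T23 kept its call. Values with that term compare IL-4 #1 alone with the controls. IL-4 #1 was the highest IL-4 library for Tap1, Tap2 and Tapbp.

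Nlrc5 (ENSMUSG00000074151.13, chr8:94434356-94527272) encodes the transactivator that is recruited to class I promoters. It measured 5.56, 3.21 and 4.17 FPKM in Control, 10.4, 6.20 and 2.35 in IL-4 and 9.51, 7.82 and 7.83 in IL-6. The IL-4 libraries spanned the controls on both sides, from the highest to the lowest value of all 9, and the IL-6 libraries lay above all controls. The log2 fold change was 0.34 for IL-4 (SE 0.472, adjusted p = 0.633) and 0.97 for IL-6 (SE 0.472, adjusted p = 0.292). Without IL-4 #3, IL-4 gave 0.91 (adjusted p = 0.0299) and IL-6 0.97 (adjusted p = 0.0234), and both passed. Without that library, 8 of the 10 members rose with IL-4, the added ones being Tap1, Tap2, Tapbp and Nlrc5, and for IL-6 3 members passed, H2-K1 and Nlrc5 higher and H2-T23 lower. More of all 12824 tested genes passed as well: 1967 rose and 2881 fell with IL-4. With IL-6, 1573 rose and 1595 fell, in place of 587 and 490.

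Overlapping genes bound some of these levels. Psmb9 and Tap1 share 212 exonic bases on opposite strands, and Tapbp shares 904 with Gm19412 on the other strand and 149 with Zbtb22 on its own. Psmb8 shares 498 with Gm20496 and Tap2 533 with Gm15821, both antisense. The kit was stranded, but whether strand was used in counting is not given in the sources used here, so such reads cannot be assigned with certainty. The identifiers of H2-K1, Tapbp, Psmb8 and Psmb9 differ from M21 in their version. Their M21 exon lengths, 2938, 3628, 3381 and 3660 bases, did not give whole fragments in all 9 libraries. The nearest lengths that did were 2608, 3296, 2736 and 3659. Several lengths did so for each gene, so the length behind the FPKM is not certain. The fragments and voom values of these members rest on the nearest length.

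**Figure D4:**
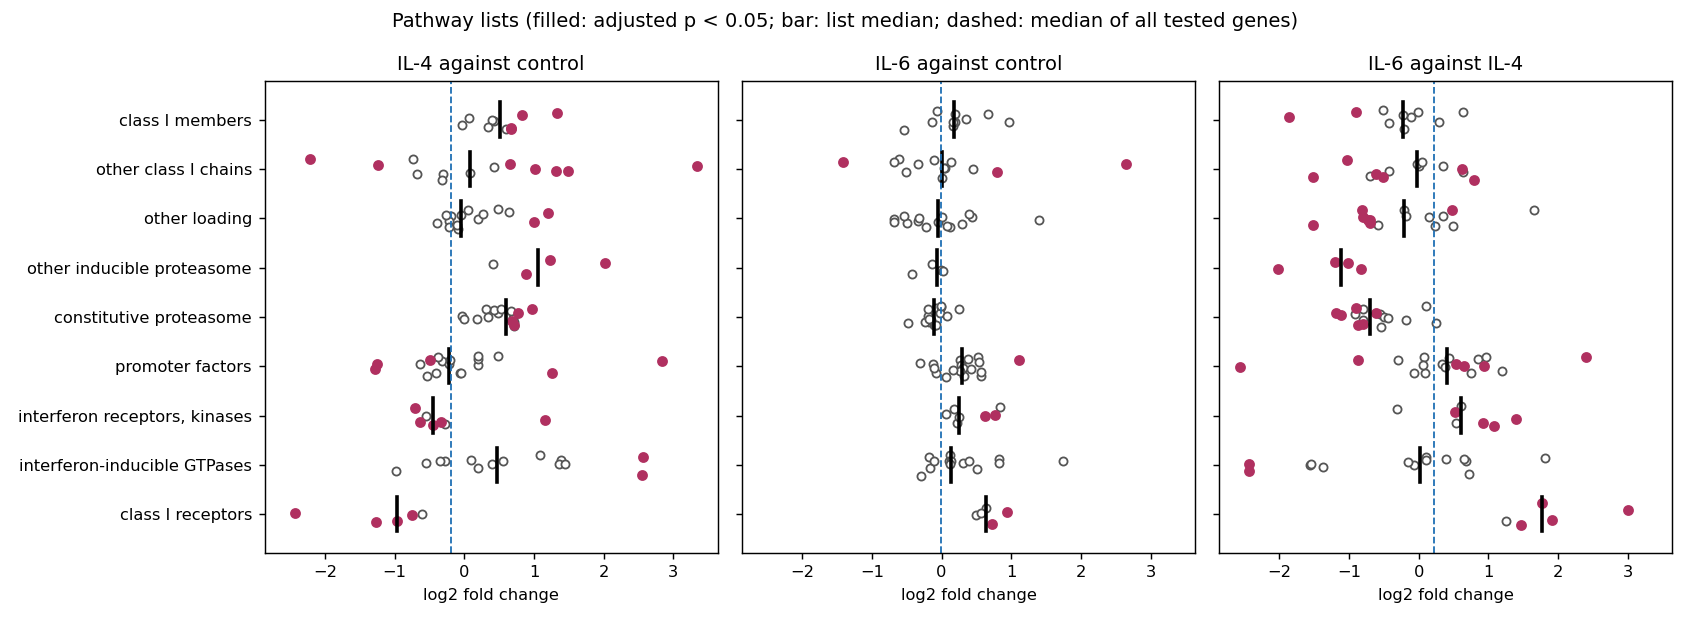
Log2 fold changes on the log2(FPKM + 0.1) scale (x axes) of the tested genes of 9 class I-related lists (y axis) in the 3 comparisons. Points are genes, filled where the adjusted p was under 0.05, bars are list medians, and dashed lines are the median of all tested genes. The 4 other inducible proteasome genes all lie below 0 in IL-6 against IL-4, and the 5 class I receptors all lie above 0.

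Other class I and class I-like chains went in both directions. With IL-4, 5 of 13 tested rose and 2 fell. H2-M2, a nonclassical chain, rose from 0.573, 0.409 and 0.570 FPKM in Control to 9.92, 7.49 and 3.05 in IL-4 (log2 fold change 3.34, adjusted p = 0.00119), and to 5.90, 2.55 and 3.46 in IL-6 (2.65, adjusted p = 0.00988). Fcgrt, the heavy chain of the neonatal Fc receptor, fell by 2.21 on the log2 scale with IL-4 and by 1.42 with IL-6 (adjusted p = 0.000434 and 0.0106). H2-Q6 and H2-Q7 rose with IL-4, by 1.02 and 1.48, and were lower in IL-6 than in IL-4. With the library set as a term 2 of the 13 rose and 2 fell with IL-4, and the rises of H2-Q6 (adjusted p = 0.156) and H2-Q7 (adjusted p = 0.0560) were lost. H2-Q4, picked after its values were seen, measured 13.7, 17.1 and 15.7 FPKM in Control, 38.2, 38.1 and 39.1 in IL-4 and 24.7, 27.7 and 28.1 in IL-6, and passed in all 3 comparisons (1.31, 0.79 and −0.52). The H2-Q genes are near-identical copies, so their single values are uncertain.

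Of 15 other loading and trimming genes, 2 rose with IL-4: Bcap31, which sorts class I molecules out of the endoplasmic reticulum, by 1.20 (adjusted p = 0.00236), and Tapbpl, the peptide editor TAPBPR, by 1.00 (adjusted p = 0.00469). Of all tested genes 8.55% rose. Leaving out IL-4 #3 gave 3 of the 15, where 1967 of all 12824 tested genes rose. In IL-6 against IL-4, 6 were lower and 1 higher (9 and 1 without IL-4 #3), with Bcap31 at −1.52, Thop1, a cytosolic peptidase, at −0.82, Hsp90b1, a chaperone, at −0.81 and Calr (calreticulin) at −0.73. Erap1, the trimming peptidase, passed in none of the 3 comparisons (0.64 for IL-4, adjusted p = 0.228). For IL-6 against control none of the 15 passed (limma, 4 at an unadjusted p under 0.05, and 0 of 13 by voom). Without IL-4 #3, which enters only through the shared spread, 1 passed as higher and 4 as lower. In that setting 1573 of all 12824 tested genes rose and 1595 fell with IL-6. Between the cytokines, 3166 were then higher and 2378 lower in IL-6.

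Among 18 factors known to act on class I promoters, 2 rose and 3 fell with IL-4, near the shares over all tested genes (8.55% higher, 16.3% lower). Ciita, the class II counterpart of Nlrc5, rose by 2.84 (adjusted p = 0.0242), and Irf1, an interferon-induced factor, by 1.26 (adjusted p = 0.0132). Relb, an NF-κB subunit, fell by 1.28 with IL-4 and rose by 1.11 with IL-6 (adjusted p = 0.00113 and 0.00631), and Irf8, a myeloid interferon regulatory factor, fell by 1.25 with IL-4 (adjusted p = 0.000837). Without IL-4 #3, 4 of the 18 rose and 4 fell with IL-4, and 4 rose and 1 fell with IL-6 in place of 1 and 0. In that setting 1967 of all 12824 tested genes rose and 2881 fell with IL-4, and 1573 rose and 1595 fell with IL-6.

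The interferon genes themselves were scarce. Ifng had 26, 12 and 3 fragments in IL-4 #1 to #3 and 0 in each of the other 6 libraries, where a count of 0 allows up to 3. Of 11 interferon, receptor and kinase genes, 7 were tested. With IL-4, Jak2 rose (1.16, adjusted p = 0.0313) and 4 fell, among them Ifnar2 by 0.70, Ifnar1 by 0.64 and Ifngr1 by 0.45. With the library set as a term only Ifnar2 of these fell (Ifnar1 adjusted p = 0.333, Ifngr1 adjusted p = 0.208), and under median-ratio rescaling 2 fell. With IL-6, Ifnar1 rose by 0.76 (adjusted p = 0.0388) and Ifngr1 by 0.63 (adjusted p = 0.0122), and Ifnar2 measured 0.22 (adjusted p = 0.222). Without IL-4 #3, 4 of the 7 rose with IL-6, where 1573 of all 12824 tested genes rose.

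Of 14 interferon-inducible GTPases tested, 2 rose with IL-4, where 8.55% of all tested genes did. Gbp2 went from 23.4, 15.5 and 14.001 FPKM in Control to 262, 92.6 and 44.2 in IL-4 and stood at 23.2, 19.2 and 14.7 in IL-6 (2.57 for IL-4, adjusted p = 0.0125). Gbp8 followed, at 2.19, 2.14 and 1.66 in Control and 19.7, 12.98 and 6.89 in IL-4 (2.55, adjusted p = 0.00129). For IL-6 none passed (limma, 1 at an unadjusted p under 0.05, and 0 of 13 by voom), while 1 did without IL-4 #3. Without IL-4 #3, 6 of the 14 rose with IL-4. In that setting 1967 of all 12824 tested genes rose with IL-4 and 1573 with IL-6. With the library set as a term, which leaves IL-4 #1 alone against the controls, the median of the 14 was 1.93, against 0.48 without the term.

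Within the IL-4 group several of these genes shared an order. IL-4 #1 was the highest and IL-4 #3 the lowest of the 3 for Ifng, Gbp2, Gbp8, Irf1, Ciita, Nlrc5 and Tap1. IL-4 #3 was instead the highest for Psmb8, Psmb9, Psmb10 and H2-K1. This order describes 3 libraries, and the genes in it were picked after their values were seen. It was not particular to them. The Mϕ markers Csf1r (361, 306 and 168 FPKM in IL-4 #1 to #3) and Mertk (34.9, 28.9 and 6.69) had the same order. Markers of T and NK cells, a source of interferon-γ, were also higher in sum in the IL-4 group. The 9 genes summed to 2.21 to 5.39 FPKM in Control, 26.5 to 49.3 in IL-4 and 3.10 to 5.23 in IL-6. Most of that was Gzma, with 953, 611 and 1609 fragments in IL-4 and 0 to 4 elsewhere, so here IL-4 #3 was the highest library. Nkg7 and Cd2 did not pass with IL-4 (limma, adjusted p = 0.218 and 0.296). For Nkg7, Cd2, Cd8b1, Cd3e and Ncr1 the IL-4 libraries overlapped the controls. Cd8b1 averaged 0.342 FPKM in IL-4 and 0.383 in IL-6. Cd8a had 67, 102 and 63 fragments in IL-4, against 8 to 16 in Control and 25 to 43 in IL-6, and Cd3d had 19, 23 and 85, against 4 to 10 and 11 to 19. Cd3e had 4 to 36 fragments and Ncr1 1 to 13 over the 9 libraries, and no gene of the list was at 0 throughout a group. The part of such cells in the IL-4 values was not tested. Dendritic cell markers summed to 3.03 to 8.80 FPKM and B cell markers to 19.9 to 50.7 over all libraries, and 8 granulocyte markers to 1002 to 1660 in Control, 338 to 530 in IL-4 and 1632 to 2257 in IL-6.

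**Figure D5:**
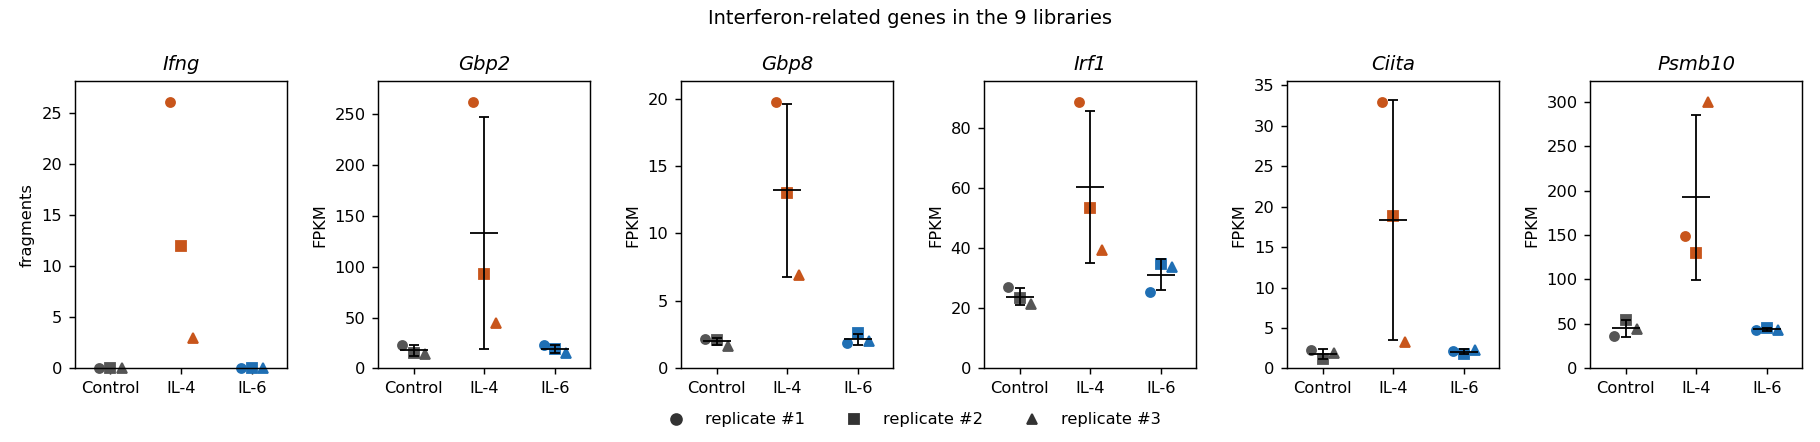
Fragments of Ifng and FPKM of Gbp2, Gbp8, Irf1, Ciita and Psmb10 (y axes, from 0) in Control, IL-4 and IL-6. Points are libraries, shaped by replicate number, and bars are the mean ± SD of 3 libraries, left out for Ifng. IL-4 #1 is highest in the first 5 panels and IL-4 #3 in the last, at 299 FPKM.

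Some receptors that bind class I molecules also changed. Of the 5 tested, 4 fell with IL-4 and 2 rose with IL-6, and 4 were higher in IL-6 than in IL-4. Pirb, an inhibitory receptor, measured 97.9 ± 2.62 FPKM for Control, 50.3 ± 6.95 for IL-4 and 188 ± 9.78 for IL-6 (SD, n = 3 libraries), with a log2 fold change of −0.97 for IL-4 (adjusted p = 0.000775) and 0.94 for IL-6 (adjusted p = 0.00282). Klra2, a Ly49-family receptor, fell by 0.75 with IL-4 and rose by 0.72 with IL-6 (adjusted p = 0.0166 and 0.0433). Klra17 and Lilra6 fell with IL-4, by 2.43 and 1.27, and measured 0.57 and 0.49 with IL-6, which did not pass. With the library set as a term, Pirb and Klra17 kept their IL-4 calls and no receptor passed for IL-6 against control (limma, 3 at an unadjusted p under 0.05, and 2 passed by voom without the term). For IL-6 against control, values with that term run through IL-4 #1, the only treated library in the controls' set. They therefore add the difference of IL-4 #1 from the controls to that of IL-6 from IL-4 #2 and #3. An IL-6 effect alone cannot be read from them. Gbp2, for example, measured 2.16 with the term and 0.12 without it, while IL-4 #1 stood at 262 FPKM.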

How the data were processed

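RNA from 9 libraries was sequenced by the authors as polyadenylated RNA with a stranded kit, and they deposited FPKM values per gene. Their processing notes name STAR 2.4.2a, Cufflinks 2.2.1 and GRCm38. Identifiers were matched to GENCODE M21 (94.8% with version). FPKM steps over M21 exon lengths gave whole fragments for 100.0% of 109682 low values, within 0.05, from which fragments per library were read.

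Genes averaging 0.5 FPKM or more (12824) were fitted as log2(FPKM + 0.1) with limma 3.58.1 (R 4.3.3, eBayes with trend and robust), with 3 groups in 1 model and Benjamini-Hochberg adjustment. Fold changes on this scale understate those of low genes. Calls needed an adjusted p under 0.05, and all adjusted p are from this fit unless another setting is named. Single values had two-sided exact permutation tests over 20 splits. The fit was tested on simulated data.

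The design names 3 mice. Column headers put an m before each number, but no label ties a number to the same mouse across groups. Deviations of same-numbered libraries correlated with r of 0.521, −0.415 and 0.0777 (control and IL-4), 0.408, 0.201 and 0.166 (control and IL-6) and 0.281, −0.0612 and 0.153 (IL-4 and IL-6). Differently numbered libraries gave −0.593 to 0.584, −0.341 to 0.176 and −0.282 to 0.159 in the same order. Same-numbered values were highest for control and IL-6 but not throughout, so the numbers were not taken to pair the libraries. If libraries are not separate cultures, p-values measure technical spread only. The set term is a split by intestinal transcripts.

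Members and lists were chosen with earlier results of these data known. Named are all members, the up to 4 largest changes among called genes of each other list, and Irf1, Ciita, Psmb10, Psmb5, Calr, Erap1 and Ifng. A further gene that this rule names is not reported here. The receptor Lilrb4b was not analysed here. Alternatives covered pseudocounts of 1 and 0.01, filters, scalings, only the 2 groups compared, the replicate block, eBayes without trend, the set term, voom on 11360 genes, a log2 fold change of at least 1 and leaving out each library. Removal of length and GC trends (splines with 5 degrees of freedom, also with the block) and the set term without IL-4 #3 were added after seeing the data.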

Additional observations from a re-analysis of the deposited data

How the results depend on the processing

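Of 720 alternative values for single members and comparisons, 650 stayed on the same side of the threshold, 31 lost their call and 39 gained one. The sign turned in 25, for B2m, H2-D1 and Nlrc5 with IL-4, H2-D1 and Psmb8 with IL-6, and H2-K1 and H2-D1 between the cytokines, and none of these passed the threshold before or after. For IL-4 against control, 3186 genes and 4 members passed. The main fit tested 12824 genes and the filter at a mean FPKM of at least 5 only 6559. The counts under that filter are therefore out of a smaller total. With a mean FPKM of at least 5 there were 1839 genes, with only the 2 groups 1796 genes and 1 member, with the set term 1367 genes, with the fold minimum 1784 genes and 1 member, and without a filter 2 members. For IL-6 against control (1077 genes, 0 members) the same settings gave 628 genes and 1 member, 2822 genes and 3 members, 187 genes, and 690 genes, the set term without IL-4 #3 gave 410 genes, and 1 member passed with a pseudocount of 1, quantile normalization, voom, length and GC trends removed, and these with the replicate block. For IL-6 against IL-4 (4375 genes, 2 members), 2479 genes passed with a mean FPKM of at least 5 and 2613 genes and 1 member with the fold minimum, while median-ratio rescaling gave 4 members, quantile normalization 5 and the set term without IL-4 #3 1; the split of 2671 higher and 1704 lower genes became 2280 and 2205 or 2323 and 2619 under the 2 rescalings. Leaving out 1 library gave 2026 to 4848 genes and 1 to 8 members, 462 to 3168 genes and 0 to 3 members, and 2911 to 5544 genes and 1 to 3 members in the 3 comparisons, with the upper ends for IL-4 and IL-6 against control reached without IL-4 #3. The cause of these differences was not tested.

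With the replicate number as a block, 3023, 908 and 4463 genes and 3, 0 and 2 members passed, and Psmb8 with IL-4 was the member lost (adjusted p = 0.0504). With the replicate block and length and GC trends removed, 3933, 1276 and 5320 genes and 5, 1 and 2 members passed. Each member had at least 797 fragments per library, so the spread between libraries limited these tests more than depth.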
